A study of Mus musculus with 40 samples.

Results

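Zinc finger genes whose symbol is Zfp followed by a number were followed through the cells of the female mouse blastocyst. A gene was taken as a member when RPRT, the expression value of the authors (reads scaled to the retrotranscribed length and to library depth), was above 4 in at least 5 of 40 single cells. The members were thus chosen by the RPRT values of these same cells. Only autosomal genes were used, and Zfp42, Zfp57 and Zfp423 were left out by name. Of 341 Zfp rows among 17280 genes, 205 were members. Their levels are therefore given as a description, and a gene above 4 in the 3 trophectoderm cells alone could not have been chosen. Of 9706 autosomal genes over the same limits, the members were 2.11%.

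The cells came from 13 female embryos of natural matings in which the mother was C57BL/6J and the father CAST/EiJ, so every embryo was a hybrid and no other genotype was compared. At E4.0 they comprised 10 epiblast cells (Epi) of 2 embryos and 13 primitive endoderm cells (PrE) of 3 embryos. At E3.5 they comprised 14 cells of the inner cell mass (ICM) of 7 embryos and 3 cells of the trophectoderm (TE) of 3 embryos. The labels give the stage, and the class and the embryo of each cell were taken from a supplementary table of the study, which set the classes from lineage factors. Since cells of 1 embryo share their source, the embryo was the replicate, and the tests used 15 count sums, 1 for each embryo and class. Embryo 14 gave 9 of the 10 Epi cells together with 7 PrE cells, and embryo 4 contributed both an ICM cell and a TE cell. All 3 TE cells and 3 ICM cells came from an earlier study of the same authors, and 4 cells, 3 PrE and 1 ICM, had under 70% of reads mapped.

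The libraries held 1019112 to 12689903 counts per cell in PrE cells and 2671531 counts or more in each other cell. Summed RPRT of 10 epiblast markers lay between 1903 and 2356 in Epi embryos, against 391 to 1032 in PrE embryos, and that of 10 primitive endoderm markers between 19.96 and 63.1 in Epi embryos, against 907 to 1714 in PrE embryos. Summed RPRT of 10 trophectoderm markers was 51.6 to 1951 in ICM embryos and 8827 to 13392 in TE embryos. Of 7 cumulus and granulosa markers, 4 were in the table, with an RPRT of at most 1.56 in any sum. The TE cell of embryo 5 stood apart, with 3293 autosomal genes above RPRT 4, against 3934 or more in each of the other 39 cells.

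Most Zfp genes encode C2H2 zinc finger proteins, in which each finger is a short fold around a zinc ion and a row of fingers reads a DNA sequence. Many of them carry a KRAB domain in front of the fingers. This domain binds Trim28 (KAP1), a scaffold that brings the H3K9 methyltransferase Setdb1, HP1 proteins and histone deacetylases to the bound site, and in the early embryo this machinery keeps endogenous retroviruses and imprinted regions methylated. Other genes with the same name have no KRAB domain and act at promoters, on RNA or ribosomes, or at the kinetochore.

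Among 204 members with a coding sequence in the GENCODE annotation, a KRAB A-box core (at least 7 of 9 residues) was found in 114 and not in 90. The members had a median of 10 finger matches, with 11 in those with the KRAB core and 7 in those without. Zfp142 had 36 finger matches, Zfp462 had 33 and Zfp236 had 30. No C2H2 finger was matched in 5 members, among them Zfp36, whose zinc fingers are of the CCCH kind, and Zfp330. The proteins ranged from 76 residues in Zfp706 to 2698 residues.

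Promoters of 169 members, from 250 bases before to 50 bases after the start site, were matched by symbol in RefSeq on GRCm38.p6. The windows held a median of 15 CpG sites in the members, against 22 in 7485 autosomal genes over the same RPRT limits and 7 in all 27025 promoters. The letters ACTACAATT, which are the core of a motif read by Zfp143 (ZNF143), stood on either strand in 5 member promoters. These 5 stretches are shown because Zfp143 was itself a member, with the motif letters in capitals and the sequence given along the strand that holds them.
Zfp1 (chr8:111643409-111643438): gaggtgtaggACTACAATTcccataatgcc
Zfp58 (chr13:67500532-67500561): cagtggccagACTACAATTcccacaagtct
Zfp93 (chr7:24270338-24270367): tggcgttggaACTACAATTcccagaattcc
Zfp180 (chr7:24081866-24081895): gctcaatggaACTACAATTcccagaactct
Zfp692 (chr11:58307011-58307040): actaaggctaACTACAATTcccggcaggct
The match lay on the strand of the gene in Zfp692 and on the opposite strand in the other 4, at 20 to 69 bases before the start site. These 5 were 2.96% of the member promoters, against 0.949% of the promoters of genes over the same limits and 0.433% of all promoters. A YY1 motif core, AAGATGGCG, was found on either strand in 5.33% of member promoters, against 3.85% and 1.495%. An NRF1 motif core, TGCGCATGC, was found in 3.55% of member promoters, against 3.51% and 1.59%. None of the 3 letter runs contains another, and a match describes the sequence only. Zfp143 itself had an RPRT of 19.4 and 2.07 in Epi embryos, 8.70, 2.55 and 13.96 in PrE embryos, 2.05 to 19.7 with a median of 4.32 in ICM embryos, and 7.86, 8.91 and 0.208 in TE cells, so all 4 classes overlapped.

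As a group, the members were expressed at a low level and in part of the cells. The median member was above RPRT 4 in 14 of 40 cells, against 24 cells for the other 9501 autosomal genes over the same limits, and its mean over the 4 classes was an RPRT of 5.91, against 13.6. Zfp207 and Zfp706 were above 4 in all 40 cells, 26 members were so in 30 or more cells, and 73 members in 5 to 9 cells. All 4 classes held cells above 4 for 113 members. No cell above 4 was found among Epi cells for 17 members, among PrE cells for 7, among ICM cells for 5 and among the 3 TE cells for 79.

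At the edge of the rule, 12 members were above RPRT 4 in exactly 5 cells. Their fifth-highest values ran between 4.02 and 9.23, as in Zfp53 with 6.31, Zfp58 with 5.50, Zfp78 with 5.35, Zfp81 with 5.73 and Zfp319 with 9.23. Just outside were 22 Zfp genes above 4 in exactly 4 cells, with a fifth-highest value between 0.807 and the limit, as in Zfp11 with 2.09, Zfp41 with 3.78, Zfp74 with 2.53, Zfp85 with 3.90 and Zfp112 with 3.63. Asking for 4 cells gave 227 members and asking for 10 cells gave 132.

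The 8 members with the highest levels included factors of the kinetochore and of the ribosome. Zfp207 (BuGZ), which loads the checkpoint protein Bub3 on kinetochores, had the highest mean over the classes, an RPRT of 72.3, with 15.3 in its lowest cell and 300.1 in its highest. It was the highest member in 10 of 40 cells. Zfp296, a factor of pluripotent cells, followed with an RPRT of 62.9 and was above 4 in 33 cells. It had 151.6, 99.8 and 90.8 in the TE cells, against 45.7 and 46.8 in Epi embryos, and Epi was not tested against TE.
Zfp142 averaged 61.5, or 14.7 without the TE cell of embryo 5 at 582. Zfp706 averaged 57.9, between 11.4 and 120.1 in single cells. Zfp598, an E3 ligase that senses collided ribosomes, averaged 51.4, and Zfp622, which takes part in the maturation of the large ribosomal subunit, averaged 45.1. Zfp664 averaged 51.3 and Zfp330 averaged 46.5. None of these 8 members carried the KRAB core.

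Members with the KRAB core had a median class mean of 4.89 and were above RPRT 4 in a median of 11 cells, and those without it had 7.50 and 17 cells. Of the 26 members above 4 in 30 or more cells, 11 had the core and 15 did not. Zfp991 was above 4 in ICM cells alone, in 5 of them, with 1.67 to 6.46 per ICM embryo. Epi embryos had 1.98 and 3.86 of it, PrE embryos 0.893, 0.869 and 1.21, and TE cells 0.160, 3.67 and 0.249, so the classes overlapped. Of its windows, 86.7% were shared with other genes, most of all with Znf41-ps. Zfp667 was above 4 in PrE cells alone, in 6 of them, with an RPRT of 21.7, 0.846 and 11.3 in the PrE embryos. Epi embryos had 0.166 and 0.120 of it, ICM embryos at most 1.81 and TE cells at most 0.704, so PrE and ICM embryos overlapped. Zfp991 and Zfp667 met the rule only through the class named, so their higher level there follows from the choice.

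The number of members above RPRT 4 in a cell ran over 76 to 105 in Epi (median 89.5), 46 to 104 in PrE (median 72), 72 to 109 in ICM (median 91) and 36 to 79 in TE (median 76). The ranges of the 4 classes overlapped. The TE cell of embryo 5 had the fewest members and also the fewest genes.
As a share of the autosomal genes above 4 in the same cell, the members made up 1.36% to 1.75% in Epi, 1.17% to 1.63% in PrE, 1.16% to 1.63% in ICM and 1.09% to 1.41% in TE. Their summed RPRT was 0.242% to 0.548% of the autosomal RPRT in Epi, 0.123% to 0.387% in PrE, 0.164% to 0.345% in ICM and 0.206% to 0.397% in TE.

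**Figure D1:**
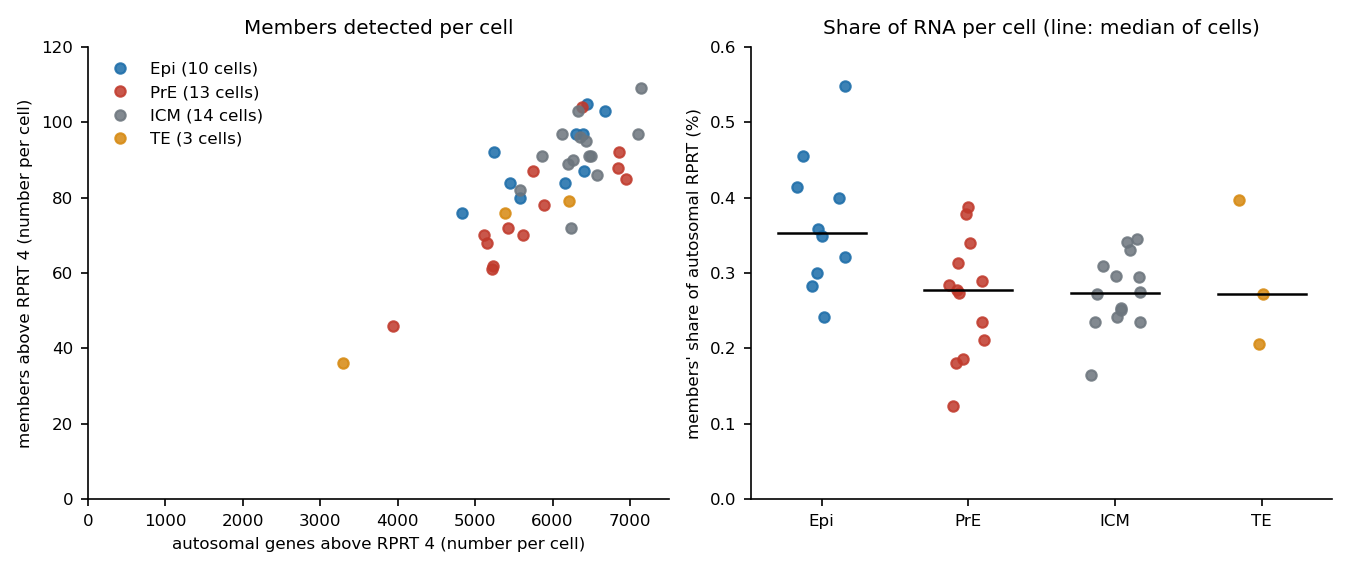
Left, number of members above RPRT 4 against the number of autosomal genes above RPRT 4 in each of the 40 single cells (points, coloured by class). Right, the members' share of the autosomal RPRT per cell in percent, by class, with the median as a line, which is 0.354% in Epi, 0.277% in PrE, 0.273% in ICM and 0.272% in TE, with overlapping ranges.

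The ICM was compared with the TE to ask which members differ between the inside and the outside of the E3.5 blastocyst. Of the members, 6 were higher in ICM and 4 lower in ICM than in TE at an adjusted p of 0.05 (edgeR quasi-likelihood F test, Benjamini-Hochberg over 12599 genes). These 10 are 4.88% of the members, and 4.23% of all genes tested passed in this comparison (2.14% higher and 2.1% lower). An unadjusted p under 0.05 was found for 54 members, 26.3%, against 24.6% of all genes. Both shares were close to the background. Without TMM scaling 5 higher and 1 lower passed (2.93%, against 2.94% of all genes), and in DESeq2 32 higher and 17 lower (25% of 196 members, against 24.1% of all genes). The median log2 fold change of the members in ICM over TE was 0.89, against 0.70 for all genes and 0.46 for other genes over the same limits. The medians of members and of all genes shifted to 1.36 and 1.09 without TMM and to 0.41 and -0.07 in DESeq2.

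Among the members higher in ICM, Zfp330 (chr8:82763607-82774160, mm10) was the firmest. Its RPRT was 16.7 to 97.3 in the 7 ICM embryos with a median of 40.3, against 3.34, 0.883 and 1.496 in the TE cells. The groups did not overlap. Zfp330 averaged 49.5 ± 26.5 in ICM (SD, n = 7) and 1.91 ± 1.28 in TE (SD, n = 3), with a log2 fold change of 4.60 (SE 0.91, edgeR adjusted p = 0.0131). It passed when any of the 13 embryos was left out. Within embryo 4, the ICM cell had 97.3 and the TE cell 0.883. Of the last 3000 bases of its transcript, 19.1% of 50-base windows were shared with other genes, most of all with Gm7785. Part of the reads thus cannot be assigned with certainty.

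Zfp637 (chr6:117841180-117845956) had an RPRT of 4.34 to 36.6 in ICM embryos with a median of 15.2, against 0.602, 0 and 0 in the TE cells. It averaged 19.9 ± 11.7 in ICM (SD, n = 7) and 0.201 ± 0.348 in TE (SD, n = 3), with a log2 fold change of 7.08 (SE 1.64, edgeR adjusted p = 0.0249). The groups did not overlap, and the call held in 12 of 13 fits that left out an embryo, with 0.0708 without embryo 5.
Zfp59, a KRAB-type gene, had 3.92 to 17.8 in ICM embryos with a median of 6.66 and no count in any TE cell (edgeR adjusted p = 0.0329). Its mean in ICM embryos was 105-fold above a floor of 3 counts over the TE cells, or 60.1-fold without embryo 4. The floor allows for counting error alone, not for the spread between single cells. Over the alternatives, Zfp59 had log2 fold changes down to 3.645. It passed in 9 of 13 fits that left out an embryo, with adjusted p of up to 0.0855, and over the 4 classes in 4 of 13. Of its windows, 55.3% were shared with other genes, most of all with Gm7452. Zfp654 also had no count in the TE cells, against 0.267 to 11.99 in ICM embryos with a median of 3.37 (edgeR adjusted p = 0.0494). Its mean in ICM embryos was 105-fold above the same floor, or 60.6-fold without embryo 4. Over the alternatives, Zfp654 had log2 fold changes down to 3.554. Leaving out 12 of the 13 embryos one at a time ended the call of Zfp654, and it was 0.140 without embryo 5.

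Zfp451, a SUMO ligase, had 2.21 to 24.1 in ICM embryos with a median of 4.94, against 2.01, 0 and 0.415 in the TE cells. The log2 fold change was 5.82 (SE 1.60, edgeR adjusted p = 0.0454), and it passed in 1 of 13 fits that left out an embryo. Zfp987, of a chromosome 4 cluster, had 4.68 to 47.9 in ICM embryos with a median of 13.9, against 0.584, 2.20 and 3.25 in the TE cells. Its log2 fold change was 3.88 (SE 1.08, edgeR adjusted p = 0.0474), and it passed in 2 of 13 such fits. Of its windows, 92.1% were shared with other genes, most of all with Gm8935. In neither gene did the groups overlap. Genes that passed were picked by their p, so a lack of overlap between their groups is a description only.

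Among the members lower in ICM, Zfp36 (chr7:28376784-28380253, tristetraprolin), an RNA-binding protein that promotes the decay of mRNAs with AU-rich elements, had 0.158 to 11.6 in ICM embryos with a median of 2.09, against 7.69, 195 and 118 in the TE cells. The highest ICM embryo was above the lowest TE cell. Zfp36 averaged 4.22 ± 4.45 in ICM (SD, n = 7) and 107 ± 94.1 in TE (SD, n = 3), with a log2 fold change of -5.60 (SE 1.25, edgeR adjusted p = 0.0225). The adjusted p was 0.0529 without embryo 4 and 0.0575 without embryo 5. Within embryo 4, the ICM cell had 3.96 and the TE cell 195. Over the 4 classes Zfp36 had the lowest adjusted p of the members, 0.00707, and it passed under all 20 alternatives of that test.

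The other 3 members lower in ICM lost their call without the TE cell of embryo 5. Zfp142 had 7.54 to 15 in ICM embryos with a median of 13.5, against 38.8, 2.53 and 582 in the TE cells. Its log2 fold change was -3.85 (SE 0.93, edgeR adjusted p = 0.0307), and 0.13 without embryo 5. Of its windows, 68.01% lie on the other strand of other genes, most of all of Plcd4. Plcd4 was listed at 0 in all 3 TE cells, and its median over all cells was also 0. The part of this overlap was not tested.
Zfp592, which works with the chromatin reader Zmynd8, had 0.672 to 12.75 in ICM embryos with a median of 2.47, against 17.7, 1.99 and 70.7 in the TE cells (log2 fold change -3.93, SE 0.99, edgeR adjusted p = 0.0343, and 0.409 without embryo 5). Zfp64 had 4.53 to 33.1 in ICM embryos with a median of 18.1, against 4.82, 37.4 and 270.1 in the TE cells (log2 fold change -3.25, SE 0.89, edgeR adjusted p = 0.0454, and 0.700 without embryo 5). Zfp64 passed in 2 of 13 fits that left out an embryo, Zfp592 in 9 and Zfp142 in 10. The ICM and TE values overlapped in all 3 genes.

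Without embryo 5, 3 of 205 members passed in ICM over TE, against 159 of 12586 genes, and without embryo 10 also 3, against 199 of 12205. The number was 4 without embryo 8 (211 of 12200 genes) and 5 without embryo 9 (258 of 12342) or 12 (333 of 12295). It was 6 without embryo 16 (337 of 12300 genes). With the ICM and TE sums fitted alone, 2 of 197 members passed, against 179 of 10160 genes. Among the 6 cells of the earlier study, which hold all TE cells, 132 members could be tested and none passed, against 8 of 7656 genes. Zfp330 had a log2 fold change of 4.92 (edgeR adjusted p = 0.311) and Zfp36 of -4.74 (edgeR adjusted p = 0.302) there. The part of the study of origin in these differences was not tested further. Cell by cell, Zfp330 was above RPRT 4 in 11 of 14 ICM cells and in 0 of 3 TE cells, and Zfp36 in 5 of 14 ICM cells and in 3 of 3 TE cells. Each TE sum was 1 cell.

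**Figure D2:**
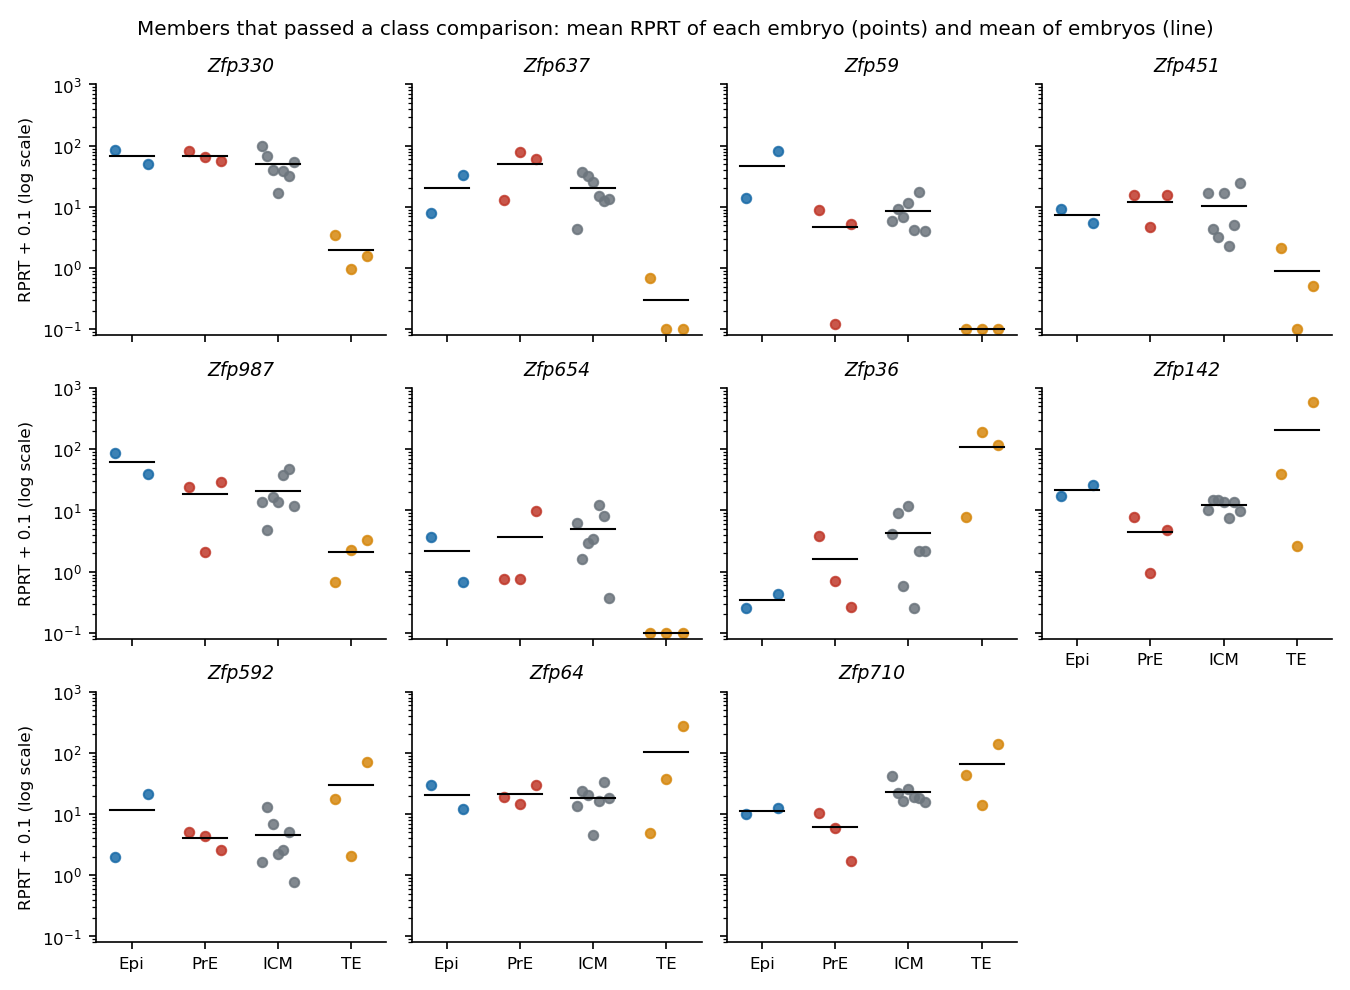
Mean RPRT of each embryo (points, log axis, with a small constant added so that 0 can be drawn) in Epi, PrE, ICM and TE, with the mean of the embryos as a line, for the 11 members that passed between ICM and TE or over the 4 classes (edgeR). Zfp330 and Zfp637 lie higher in every ICM embryo than in any TE cell, while Zfp142, Zfp592 and Zfp64 reach their highest value in the TE cell of embryo 5.

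Over the 4 classes together, 6 members passed (2.93%), against 4.33% of all genes tested, and 30 had an unadjusted p under 0.05 (14.6%), against 23.2%. With embryo as a random block in limma-voom, 16 members passed (7.8%), against 9% of all genes in that fit. In edgeR the number was 2 without embryo 16 (270 of 12300 genes) and 3 without embryo 5 (234 of 12586). The 6 were Zfp36, Zfp330, Zfp142, Zfp637, Zfp59 and Zfp710. Zfp710 (edgeR adjusted p = 0.0335) had 9.84 and 12.3 in Epi embryos, 10.4, 5.92 and 1.63 in PrE embryos, 15.4 to 42.5 with a median of 19.3 in ICM embryos, and 42.6, 13.8 and 139 in TE cells. Its adjusted p was 0.286 without embryo 5.
Zfp330 at E4.0 had 83.8 and 49.6 in Epi embryos and 81.9, 65.6 and 56.5 in PrE embryos.

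The epiblast was compared with the primitive endoderm to ask which members differ between the lineages that the ICM forms. No member passed in Epi over PrE in edgeR, as no gene did (0% of all genes tested). An unadjusted p under 0.05 was found for 7 members (3.42%), against 7.66% of all genes. In DESeq2 2 members passed (1.02%, against 3.65% of all genes) and in limma-voom 1 (0.488%, against 1.9%). In limma-voom with embryo as a block 2 passed (0.976%, against 2.71%), and all of these were lower in Epi. Over all genes, 152 of 420 calls in DESeq2 were higher in Epi, 168 of 239 in limma-voom and 223 of 341 with the block. The median log2 fold change of the members was 0.27, against -0.11 for all genes and -0.14 for other genes over the same limits, and 57.1% of the members had a positive value, against 45.6% of all genes. Without embryo 14, which holds 9 of the 10 Epi cells, the median of the members was -0.11, against -0.39 for all genes.

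Zfp326, a component of the DBIRD complex that couples transcript elongation to splicing, had the lowest p. Its RPRT was 0.278 and 0 in Epi embryos, against 11.4, 14.3 and 53.7 in PrE embryos. The groups did not overlap (log2 fold change -8.28, SE 3.02, edgeR adjusted p = 0.611, DESeq2 adjusted p = 0.00589, 0.0482 in limma-voom with the block). ICM embryos spread over 0.170 to 65.5 of it.
Zfp251 had no count in either Epi embryo, against 6.91, 0.745 and 0.0363 in PrE embryos (edgeR adjusted p = 0.611, DESeq2 adjusted p = 0.0209). Its mean in PrE embryos was 32.2-fold above a floor of 3 counts over the Epi cells, or 1.32-fold without embryo 14. This floor also allows for counting error alone. Zfp768 had 0.446 and 0 in Epi embryos, against 4.98, 14.7 and 3.85 in PrE embryos (log2 fold change -8.33, SE 3.43, edgeR adjusted p = 0.632, 0.0230 in limma-voom with the block). All 3 genes had lower values in each Epi embryo than in any PrE embryo. They were picked by their low p, so this lack of overlap is a description only. Its share over all genes is not given.

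In the other direction, Zfp462, a chromatin factor of stem cells, had 26.8 and 28.5 in Epi embryos, against 0.468, 0 and 1.85 in PrE embryos. It was above RPRT 4 in 10 of 10 Epi cells and in 0 of 13 PrE cells, with a log2 fold change of 5.13 (SE 2.43, edgeR adjusted p = 0.649). Zfp979 had 27.4 and 47.4 in Epi embryos, against 6.84, 1.55 and 6.26 in PrE embryos, and was above 4 in 10 of 10 Epi cells and 5 of 13 PrE cells (log2 fold change 2.78, SE 1.15, edgeR adjusted p = 0.632).
Zfp493 had 5.26 and 16.3 in Epi embryos, against 0.00722, 3.46 and 0.237 in PrE embryos (log2 fold change 5.21, SE 2.30, edgeR adjusted p = 0.637). Each Epi embryo was above each PrE embryo in these genes, and none of them passed. Zfp979 and Zfp493 were picked by their low p, and the share of all genes with such a split is not given.

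**Figure D3:**
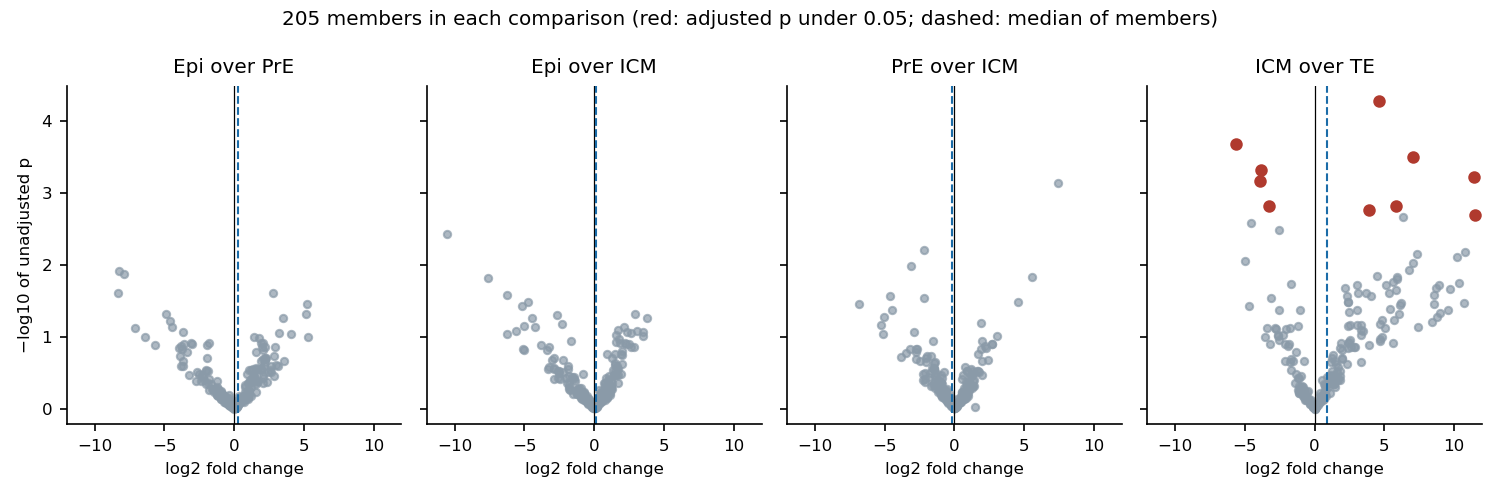
Log2 fold change of the members (horizontal axis) against -log10 of the unadjusted p (edgeR) in 4 comparisons between classes, with members at an adjusted p under 0.05 in red and the median of the members as a dashed line. The medians are 0.27 for Epi over PrE, 0.15 for Epi over ICM, -0.18 for PrE over ICM and 0.89 for ICM over TE, and red points are seen in ICM over TE alone, 10 in number.

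The E4.0 classes were also set against the E3.5 ICM, from which both derive. In Epi over ICM no member passed in edgeR, and 1 of all genes did (0.00794%). An unadjusted p under 0.05 was found for 7 members (3.42%), against 7.27% of all genes. In DESeq2 5 members passed (2.55%, against 4.22% of all genes), and in limma-voom 1 without and 1 with the block (0.488% each, against 1.9%), all lower in Epi. Over all genes, 61 of 486 calls in DESeq2 were higher in Epi, 214 of 240 in limma-voom and 215 of 239 with the block. The median log2 fold change of the members was 0.15, against -0.21 for all genes. Without embryo 14 it was -0.63 for the members, against -0.88 for all genes. Zfp251 had the lowest p, with no count in either Epi embryo, against 1.14 to 9.03 in ICM embryos with a median of 3.02 (edgeR adjusted p = 0.286, DESeq2 adjusted p = 3.54e-05, 0.0114 in limma-voom and 0.00930 with the block). Its mean in ICM embryos was 222-fold above the floor of 3 counts over the Epi cells, or 23-fold without embryo 14, with counting error alone. The groups did not overlap, in a gene picked by its low p.
Zfp326 followed (log2 fold change -7.62, edgeR adjusted p = 0.510), and Zfp775 had 0.0206 and 0.148 in Epi embryos, against 0.127 to 13.6 in ICM embryos with a median of 2.12 (log2 fold change -6.25, edgeR adjusted p = 0.611). Zfp36 (log2 fold change -4.72, edgeR adjusted p = 0.646) and Zfp691 (log2 fold change -5.16, edgeR adjusted p = 0.667) were next.

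In PrE over ICM no member passed in edgeR, as no gene did (0%). An unadjusted p under 0.05 was found for 9 members (4.39%), against 9.21% of all genes. In DESeq2 3 members passed, all lower in PrE (1.53%, against 3.01% of all genes). In limma-voom 3 passed without the block and 3 with it, all higher in PrE (1.46%, against 1.99% and 1.92%). Over all genes, 48 of 346 calls in DESeq2 were higher in PrE, 209 of 251 in limma-voom and 201 of 242 with the block. The median of the members was -0.18, against -0.05 for all genes, and in limma-voom it was 0.27, against 0.12. Zfp768 had 4.98, 14.7 and 3.85 in PrE embryos, against 0 to 0.370 in the 7 ICM embryos. The groups were well apart (log2 fold change 7.44, SE 1.88, edgeR adjusted p = 0.175, 0.00340 in limma-voom).
Zfp948 had 13.1, 3.07 and 5.92 in PrE embryos, against 0 in 5 ICM embryos and at most 0.908 in the others (log2 fold change 5.55, SE 2.09, edgeR adjusted p = 0.506, 0.00220 in limma-voom). Zfp296 had 15.9, 6.01 and 14.3 in PrE embryos, against 22.02 to 149 in ICM embryos with a median of 79.6 (log2 fold change -2.20, SE 0.72, edgeR adjusted p = 0.371). Zfp217 had 3.33, 3.16 and 1.74 in PrE embryos, against 7.02 to 68.1 in ICM embryos with a median of 23.6 (log2 fold change -3.08, SE 1.10, edgeR adjusted p = 0.436, DESeq2 adjusted p = 0.000973). PrE and ICM embryos did not overlap in any of these 4 genes, which were picked by their low p. The share of all genes without such overlap is not given. Epi over PrE, Epi over ICM and PrE over ICM share samples, so their values are not independent of each other.

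By role, 13 of 19 chromatin and promoter factors with a Zfp name were members. Of them 1 passed, Zfp592, lower in ICM than in TE, a comparison that 4.23% of all genes passed. Zfp281, a pluripotency-linked promoter factor, had 22.6 and 41.1 in Epi embryos, against 4.88, 1.53 and 10.8 in PrE embryos (edgeR adjusted p = 0.838). Of 11 RNA and ribosome factors, 9 were members and 1 passed, Zfp36, lower in ICM than in TE. Zfp598 had 14.99 to 75.9 in ICM embryos with a median of 26.4, against 169, 54.2 and 120.3 in the TE cells (log2 fold change -1.70, SE 0.66, edgeR adjusted p = 0.133).
Of 5 cell division and genome maintenance factors, 4 were members and 1 passed, Zfp451, higher in ICM than in TE. Zfp207 did not pass in any comparison. Its RPRT was 116 and 45.7 in Epi embryos, 151, 30.8 and 53.6 in PrE embryos, 16.9 to 118 in ICM embryos with a median of 52.5, and 84.2, 49.3 and 94.1 in TE cells.

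Of 5 KRAB repressors with a described target, 4 were members and none passed. Zfp568, which represses a promoter of Igf2, had the highest class mean of them, an RPRT of 19.2, with 14.5 and 56.0 in Epi embryos, against 18.6, 5.17 and 19.7 in PrE embryos. Zfp809, which silences murine leukaemia virus, averaged 7.81, or 3.62 without Epi embryo 17, which had 34.5 in its 1 cell. Zfp932, which represses endogenous retroviruses, averaged 12.5. Zfp445, which maintains imprints, averaged 3.61, with 5.57 and 1.10 in Epi embryos, against 2.39, 3.48 and 6.47 in PrE embryos. In all 4 the classes overlapped.

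Genes of the KRAB corepressor machinery and of linked chromatin and DNA methylation factors are no members, and 13 were tested. Trim28 had an RPRT of 1368 and 1807 in Epi embryos, against 380, 611 and 657 in PrE embryos (log2 fold change 1.14, SE 0.52, edgeR adjusted p = 0.637). Hdac1 had a log2 fold change of 2.31 in Epi over PrE (SE 0.83, edgeR adjusted p = 0.611). Dnmt1, the maintenance DNA methyltransferase, was the 1 gene of these 13 that passed, in ICM over TE, against 4.23% of all genes. It was higher in ICM with 26.6 to 106.5, against 1.12 to 8.60 in TE cells (log2 fold change 3.86, SE 1.02, edgeR adjusted p = 0.0403). Members with the KRAB core had a median log2 fold change of 0.27 in Epi over PrE and 1.23 in ICM over TE, and members without it 0.26 and 0.68. In ICM over TE, 2 of 114 members with the core passed, both higher. Of 90 members without it, 4 higher and 4 lower ones passed, and of all genes 4.23%. Of the lower ones, Zfp142, Zfp592 and Zfp64 lost their call without the TE cell of embryo 5. The difference between members with and without the core was not tested.

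The members lay on 19 chromosomes, with 52 on chromosome 7, 23 on chromosome 17, 17 on chromosome 4 and 16 on chromosome 13. With gaps of at most 500000 bases, 10 clusters of 5 to 9 members held 70 members, of which 57 had the KRAB core. A pair of clusters on chromosome 4 (mm10), which belong to a region of KRAB genes known for the control of endogenous retroviruses, had fitted values of 1 sign in Epi over PrE. The first, at chr4:145670685-146539395, holds Zfp600, Zfp980, Zfp981, Zfp987 and Zfp992, and the other, at chr4:147132038-147809788, holds Zfp534, Zfp979, Zfp982, Zfp984, Zfp985 and Zfp991.

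All 11 were positive, with medians of 1.90 in the first cluster and 1.25 in the other, against 0.27 for all members, and none of the 11 passed in this comparison. The clusters were picked for description after their values were seen. Zfp980 had 14.5 and 24.5 in Epi embryos, against 4.14, 1.63 and 7.43 in PrE embryos (log2 fold change 2.01, SE 1.31, edgeR adjusted p = 0.757). Zfp987 had 85.4 and 38.7 in Epi embryos, against 24.2, 1.97 and 29.3 in PrE embryos (log2 fold change 1.60, SE 1.11, edgeR adjusted p = 0.796). Zfp985 had 45.8 and 34.2 in Epi embryos, against 25.3, 3.04 and 15.9 in PrE embryos (log2 fold change 1.33, SE 1.198, edgeR adjusted p = 0.913).
These genes are close copies, with 11.9% to 92.1% of their windows shared with other genes. Reads could thus be split between them, and the 11 are not independent. On chromosome 6 (chr6:47835661-48086593), the cluster of Zfp212, Zfp282, Zfp398, Zfp746, Zfp777 and Zfp956 had a median of -3.78 in Epi over PrE, with 1 of 6 positive and none passing. On chromosome 13, 7 of 8 members of the cluster from Zfp58 to Zfp953 were positive, with a median of 1.46.

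**Figure D4:**
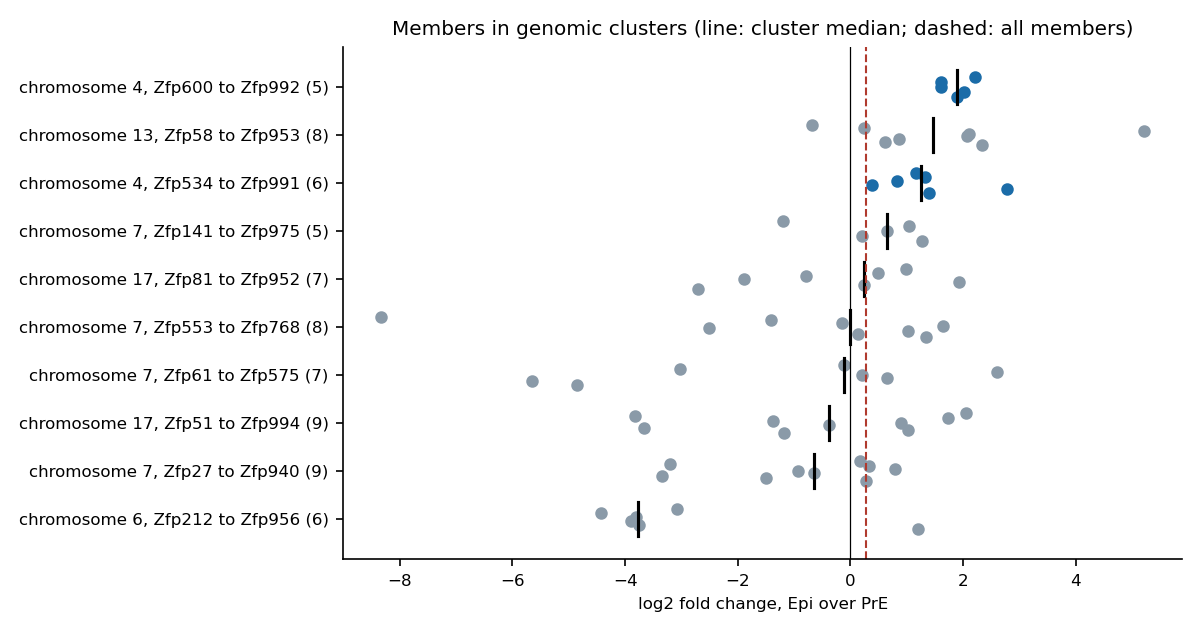
Log2 fold change in Epi over PrE (edgeR) of each member in the 10 clusters of 5 or more (points, chromosome 4 in blue), with the median of each cluster as a black line and that of all members dashed. Both clusters of chromosome 4 lie above 0 for all 11 members, and the cluster of chromosome 6 has a median of -3.78. None of the members passed in this comparison.

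Allelic ratios, a readout that the rule did not use, were available for 181 members in cells with RPRT above 4, and for 144 in at least 5 cells. The paternal share is the fraction of allele-specific reads from the CAST/EiJ father, and it came without read counts, so its counting error is unknown. Shares were averaged over the cells of each embryo and class and then over these sums. The median paternal share of the 144 members was 0.522, with quartiles of 0.397 and 0.642, against 0.501 for 7673 other autosomal genes. The members were more spread, with an SD of 0.191, against 0.164. A share of at most 0.15 or at least 0.85 was found for 9.72% of the members, against 5.45% of the other genes. By the plain mean over cells, 3 members were at or under 0.15 and 5 at or above 0.85. The plain mean over cells was not computed for the other genes. The members were also above RPRT 4 in fewer cells (median 14, against 24). The part of the number of cells in these differences was not tested. The cross was made in 1 direction, so the parent and the strain of an allele cannot be told apart.

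At the paternal end, by the mean over embryos and classes, were 7 members, and 4 of them also passed 0.85 by the plain mean over cells. Zfp78 had a share of 1 in all 5 cells with a ratio, of Epi, PrE and ICM, Zfp473 had 0.999 over 4 sums (6 cells), and Zfp2 had 0.994 over 4 sums (5 cells). Zfp97 had 0.891 over 7 sums and 0.892 over its 16 cells. Zfp984 had 0.864 over 12 sums (27 cells), just under the limit by cells. Zfp97 and Zfp984 share over 50% of their windows with other genes. Zfp772 had 0.889 over 3 sums but 0.8 over its 5 cells, and Zfp462 had 0.865 over 6 sums but 0.694 over its 15 cells.
At the maternal end were also 7 by the mean over embryos and classes, and 3 by the mean over cells. The 3 were Zfp408 with 0.0602 over 6 sums and 0.115 over 9 cells, Zfp68 with 0.0855 over 6 sums and 0.127 over 8 cells, and Zfp12 with 0.101 over 7 cells of 7 sums. The other 4 were above 0.15 by cells. Zfp668 had 0.0980 over its sums and 0.176 over its cells, and Zfp398 had 0.128 and 0.201. Zfp948 had 0.142 over its sums and 0.255 over its cells, and Zfp213 had 0.144 and 0.173. In Zfp408, 8 cells were maternal (a share of at most 0.15) and 1 was paternal (at least 0.85), and none lay between these limits.

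A value was counted as both alleles when its paternal share lay between 0.15 and 0.85, so some reads of the other allele may be present outside these limits. Both alleles in this sense were found in 34.8% of 2237 values of the members, against 53.4% of 173688 values of the other genes. At an RPRT of 4 to 10 the shares were 21.9% for the members and 29.3% for the other genes, at 10 to 30 they were 35.7% and 39.6%, at 30 to 100 they were 45.9% and 59.3%, and above 100 they were 56.9% and 85.02%. The members thus had the lower share in each range of RPRT, but also the lower median RPRT within each range. Above 100 the median was 122.7 over 51 values of the members, against 196.4 over 32866 values of the other genes. At 30 to 100 it was 44.2, against 50.3. The part of level in this difference was not tested. By class, values counted as both alleles made up 37.7% of those of the members in Epi, 30.6% in PrE, 36.6% in ICM and 27.3% in TE. The other genes had 52.2%, 52.85%, 56.2% and 43.2%, also lowest in TE. The mean paternal share of the members per sum of embryo and class lay between 0.445 and 0.566, apart from 0.735 in the TE cell of embryo 5.

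**Figure D5:**
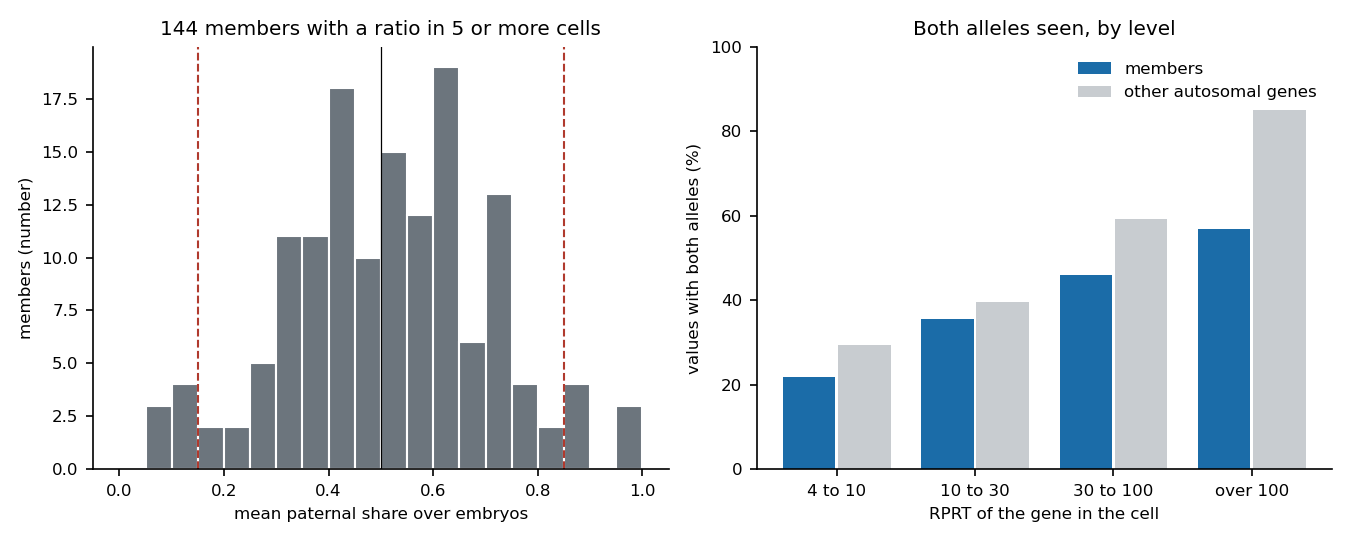
Left, number of members by mean paternal share over embryos, for the 144 members with a ratio in at least 5 cells, with the limits of 0.15 and 0.85 dashed. Right, percentage of values with both alleles (a share between 0.15 and 0.85) in members and in the other autosomal genes, by range of RPRT. It is 21.9% and 29.3% at an RPRT of 4 to 10 and 56.9% and 85.02% above 100, where the median RPRT is 122.7 and 196.4.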

How the data were processed

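Polyadenylated RNA of single cells had been reverse-transcribed from the 3′ end with a Tang-type protocol and sequenced as single-end reads. For the deposited raw counts the reads had been aligned to mm10 (TopHat2 2.1.0) and counted per gene (HTSeq 0.6.1) without normalization. RPRT is a signal, scaled by the authors to retrotranscribed length and library depth. The allelic ratios are fractions that the authors computed as paternal over paternal plus maternal reads with SAMtools and SNPsplit, with minimum numbers of reads per variant and gene.

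Raw counts were summed by embryo and class into 15 sums (5462656 to 71761691 counts) and fitted in edgeR 4.0.16 (R 4.3.3), after TMM scaling and a filter on low counts, in 1 model of the 4 classes, with the quasi-likelihood F test, Benjamini-Hochberg over 12599 genes, and an adjusted p of 0.05. Alternatives used DESeq2 1.42.0, limma 3.58.1, other scalings, filters and samples, and left out each embryo in turn. Embryos 4 and 14 each gave cells to a pair of classes, and this shared origin was fitted as a random block in limma-voom (correlation 0.187). The fit was also run on simulated counts, and the outcome of that run is not given here. No pair of cells had identical counts (highest correlation 0.898). Other steps used Python 3.11.15, numpy 2.4.6 and pandas 2.3.3. Shared sequence was sought as identical 50-base windows in the last 3000 bases of GENCODE transcripts (mm10).

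The members, gene lists and alternatives were chosen with earlier results of these data known. Named genes were the members that passed, the 5 with the lowest p per comparison, the 8 with the highest levels, members of the role lists, members at the edge of the rule, in 1 class alone, or with a paternal share at or under 0.15 or at or above 0.85, and those with most or fewest fingers. Clusters were picked later.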

Additional observations from a re-analysis of the deposited data

Results flagged for a closer look

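In 3 of 26 groups of embryos or of Epi cells looked at, 1 embryo lay far from the others. The limit used flags about 1 group in 20 by chance if values are normally distributed. RPRT values, with many at 0, need not be, so the chance rate here is unknown. For Zfp710, which passed over the 4 classes, ICM embryo 4 had an RPRT of 42.5, and the next ICM embryo had 26.0. For Zfp948, ICM embryo 12 had an RPRT of 0.908, and the next had 0.229. The members' share of the autosomal RPRT was 0.164% in ICM embryo 13, and the nearest ICM embryo had 0.254%. ICM embryos 4 and 13 gave 1 cell each and ICM embryo 12 gave 3.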

How the results depend on the processing

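Members that passed in Epi over PrE numbered 0 in edgeR, 2 in DESeq2, 1 in limma-voom and 2 with the replicate block. In Epi over ICM they numbered 0 in edgeR, 5 in DESeq2, 1 in limma-voom and 1 with the block. In PrE over ICM 0 passed in edgeR and 0 from mean CPM in limma, against 18 of 12599 genes in the latter. There were 3 lower in DESeq2, 3 higher in limma-voom and 3 higher with the block. In ICM over TE, 10 members passed in edgeR (533 of 12599 genes), 49 in DESeq2 (2770 of 11512) and 7 with the block (434 of 12599). Without TMM 6 passed (370 of 12599 genes). With the ICM and TE sums alone 2 passed (179 of 10160 genes), and with the cells of the earlier study alone 0 (8 of 7656). Leaving out an embryo gave 3 to 13 members, against 159 to 971 of all genes. Over the 4 classes, 6 members passed in edgeR (545 of 12599 genes), 32 in DESeq2 (2291 of 11508), 16 in limma-voom (1094 of 12599) and 16 with the block (1134 of 12599). From mean CPM in limma 11 passed (844 of 12599 genes), and without a filter 11 (1432 of 16740). Leaving out an embryo gave 2 (without embryo 16, 270 of 12300 genes) to 9 (without embryo 2, 729 of 12578). The causes were not tested.

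Leaving out an embryo put the median log2 fold change of the members at -0.11 to 0.47 in Epi over PrE. In Epi over ICM it was -0.63 to 0.25. Both were lowest without embryo 14, where all genes had medians of -0.39 and -0.88. In PrE over ICM the median of the members was -0.29 to -0.06. It turned to 0.27 in limma-voom and to 0.27 with the block, against 0.12 for all genes in each. Without TMM it was -0.40, against -0.30. In ICM over TE the median of the members was 0.83 to 2.24, highest without embryo 4, where all genes had 1.58. Leaving out an embryo gave -4.79 to 0.13 for Zfp142 in ICM over TE, where embryo 5 turned it. The median number of members per cell was 87 at RPRT 4 and 122.5 at RPRT 1, and 132 members were left with a limit of 10 cells. Of 665 values of single genes under alternatives, 521 kept direction and side of the threshold, 125 lost the call, 18 gained it and 1 turned.

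The 2 Epi embryos, and the single TE cell of each of 3 embryos, limit every comparison. The depth of the allelic ratios is unknown.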
